A study of Mus musculus with 4 samples.

Results

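Keratins are the intermediate filament proteins of epithelial cells. Here 10 of them are grouped as keratins of the transitional cells that arise from injured alveolar type 2 (AT2) cells or of the basal-like cells of the airway. They were chosen by name for those roles, with earlier results of these data known: Krt7, Krt8, Krt18, Krt19, Krt23 and Krt80 on the transitional and simple-epithelial side, and Krt5, Krt14, Krt15 and Krt17 on the basal side. They are 10 of the 54 keratin genes among the 40092 genes of the count table. The data were counts of 4 bulk RNA-seq libraries of cells taken at day 14 after bleomycin, a drug that injures the lung epithelium and leads to fibrosis. The 2 Ctrl libraries came from mice that were Alkbh5flox/+; Sftpc-CreERT2; Rosa26-mTmG and the 2 A5-CKO libraries from mice that were Alkbh5flox/flox; Sftpc-CreERT2; Rosa26-mTmG, and both groups received tamoxifen and bleomycin. The count table names the Ctrl columns wild type, but by their genotype the Ctrl mice also carried a floxed allele and the same Cre, and recombined cells of both groups can lose a copy of Alkbh5, the gene for an RNA demethylase that removes m6A, and those of A5-CKO both copies. Ages of the mice, and whether a library holds cells of 1 mouse or of several, are not given in the sources used here.

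CreERT2 was driven by the Sftpc promoter, so the green fluorescent protein of the mTmG reporter labelled cells that expressed Sftpc at the time of tamoxifen together with their descendants, and cells were sorted on that label. Labelled cells can therefore include AT2 cells that have since changed state. In bulk RNA, fewer cells of a type and less RNA per cell cannot be told apart.

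Type II keratins (here Krt7, Krt8, Krt5 and Krt80) pair with type I keratins (Krt18, Krt19, Krt14, Krt15, Krt17 and Krt23) to build filaments, so that neither type forms a filament alone. Krt8 and Krt18 are the usual pair of simple epithelia, Krt7 and Krt19 are their companions in ducts and in many injured epithelia, and Krt5 and Krt14 are the pair of basal cells. High Krt8 is the best known mark of the transitional state between AT2 and alveolar type 1 (AT1) cells after lung injury.

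The 10 genes lie in the keratin clusters of chromosomes 11 and 15, type I on the former and type II on the latter, except that Krt18, a type I gene, stands beside Krt8 on chromosome 15. In GRCm38.p6, the build of the mm10 assembly, Krt8 spans chr15:101996711-102004342 on the minus strand and Krt18 chr15:102028216-102032026 on the plus strand. Krt7 spans chr15:101412403-101427806 on the plus strand, and Krt23 spans chr11:99477973-99493120 on the minus strand. The other type I genes, all on the minus strand, are Krt15 at chr11:100131759-100135949, Krt19 at chr11:100140810-100145926, Krt14 at chr11:100203162-100207510 and Krt17 at chr11:100256215-100261029. The other type II genes, also on the minus strand, are Krt80 at chr15:101348315-101370162 and Krt5 at chr15:101707069-101712905. Reads were counted over annotated exons. The promoters of Krt7, Krt8, Krt18 and Krt23 are shown because the first 3 had like patterns over the libraries and Krt23 had another one. Each run, from RefSeq on GRCm38.p6, holds 150 bases before and 30 bases after the annotated start, 5′ to 3′ on the gene's strand, and capitals mark the letters TATAA and GGGCGG on either strand.
Krt7: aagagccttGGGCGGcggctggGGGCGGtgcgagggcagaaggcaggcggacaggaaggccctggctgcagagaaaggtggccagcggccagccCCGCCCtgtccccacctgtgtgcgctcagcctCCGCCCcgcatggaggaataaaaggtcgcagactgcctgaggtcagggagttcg
Krt8: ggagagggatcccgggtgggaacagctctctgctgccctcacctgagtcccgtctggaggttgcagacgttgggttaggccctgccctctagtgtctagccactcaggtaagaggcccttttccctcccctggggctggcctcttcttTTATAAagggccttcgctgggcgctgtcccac
Krt18: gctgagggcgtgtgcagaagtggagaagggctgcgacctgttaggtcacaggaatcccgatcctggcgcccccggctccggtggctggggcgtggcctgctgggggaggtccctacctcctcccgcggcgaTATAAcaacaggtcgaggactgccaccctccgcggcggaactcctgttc
Krt23: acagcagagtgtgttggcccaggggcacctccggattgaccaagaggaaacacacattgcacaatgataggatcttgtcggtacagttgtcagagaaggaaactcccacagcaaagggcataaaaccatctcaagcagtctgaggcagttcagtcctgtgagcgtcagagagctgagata

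The windows are chr15:101412253-101412432 for Krt7, chr15:102004313-102004492 for Krt8, chr15:102028066-102028245 for Krt18 and chr11:99493091-99493270 for Krt23. Over the longer window of 250 bases before to 50 after the start, the Krt8 and Krt18 promoters held the letters TATAA, and the Krt7 promoter held none of these but 4 copies of GGGCGG. The Krt23 promoter held none of the 4 motifs searched. Of 27025 mouse promoters of the same length, 25.5% held TATAA, 35.9% held GGGCGG, 56.7% held CACCC and 7.93% held TGANTCA, each counted on both strands, and TATAA can overlap itself when read on the opposite strand, as it does at Krt8. The promoters of 6 of the 10 genes had a match in the RefSeq table.

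The sequenced libraries had 18144865 to 20811757 counts each, and 16661 genes had enough counts to be tested, including 9 of the 10 keratins. Levels are given as CPM, the counts divided by a library's total scaled by the TMM factor of edgeR, a factor that was 0.860 to 1.13. Alkbh5, the targeted gene, was at 81.7 and 152 CPM for the Ctrl libraries, with 19.3 and 36.6 CPM for A5-CKO. Both A5-CKO libraries were below both Ctrl libraries, as their labels say, with a log2 fold change of -2.06 (SE 0.46, n = 2 per group, edgeR adjusted p = 0.528). DESeq2 gave an adjusted p of 0.0224 for it. Across all genes 0 of 16661 (0%) passed an adjusted p of 0.05 in edgeR, and 1530 (9.18%) had an unadjusted p under 0.05. DESeq2 with its default filtering called 59 genes at an adjusted p under 0.05.

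Krt7, Krt8, Krt18 and Krt19 were each higher in Ctrl 1 and A5-CKO 2 than in Ctrl 2 and A5-CKO 1, a split that runs across the genotypes. The share of all genes with this split was not counted. Over the 16661 tested genes, the difference between replicates 1 and 2 correlated at r = -0.348 between the groups. The differences within the 2 groups thus tended to run in opposite directions, which does not give the share of genes with the split above. None of the 9 tested keratins passed the test between the groups in the edgeR fit over all genes: 0 had an adjusted p under 0.05 against 0% of all genes, and 0 had an unadjusted p under 0.05 against 9.18% of all genes. DESeq2 likewise called 0 of the members at an adjusted p under 0.05. Of the 9, 7 were higher and 2 lower on average in A5-CKO, with a median log2 fold change of 0.20 where that of all genes was -0.02. Only Krt5 had its libraries separated by group, the A5-CKO values both lying below the Ctrl ones, which is 1 of 9 where 23.5% of all genes were separated that way. For 0 of the 9 did the A5-CKO libraries both exceed the Ctrl ones, where 20.3% of all genes did so.

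**Figure D1:**
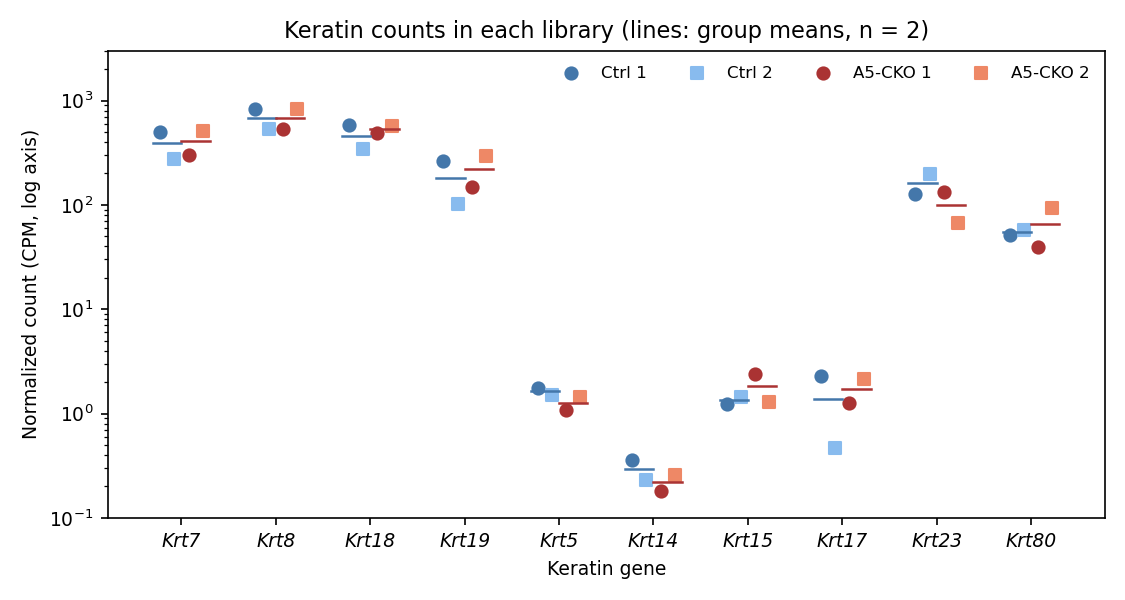
CPM of each of the 10 keratins on a log axis, with a point for each of the 4 libraries and a short line at each group's mean (n = 2). In Krt7, Krt8, Krt18 and Krt19 the points of Ctrl 1 and A5-CKO 2 lie above those of Ctrl 2 and A5-CKO 1, while Krt5, Krt14, Krt15 and Krt17 lie between 0.181 and 2.40 CPM.

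Krt8, the type II keratin that marks the transitional state, was at 832 CPM (Ctrl 1), 537 CPM (Ctrl 2), 537 CPM (A5-CKO 1) and 836 CPM (A5-CKO 2). The groups thus overlapped fully, with means of 685 ± 209 and 687 ± 212 CPM (SD, n = 2 per group). The log2 fold change was 0.0045 (SE 0.41, 95% interval -0.96 to 0.97, edgeR adjusted p = 0.998), an interval that reaches about 1 log2 unit in either direction. Within the groups Krt8 differed 1.55-fold between the Ctrl libraries and 1.56-fold between the A5-CKO libraries.

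Krt18, the type I partner of Krt8, was at 578 and 343 CPM in the Ctrl libraries and at 488 and 570 CPM in the A5-CKO libraries. The A5-CKO values lay between those of the Ctrl libraries, and the log2 fold change was 0.20 (SE 0.38, edgeR adjusted p = 0.869). The ratio of Krt8 to Krt18 counts within a library was 1.44 (Ctrl 1), 1.57 (Ctrl 2), 1.10 (A5-CKO 1) and 1.47 (A5-CKO 2). A5-CKO 1 thus had the lowest ratio of the pair.

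Krt7, the type II keratin often found with Krt19, was at 505 and 274 CPM for the Ctrl libraries, with 299 and 511 CPM for A5-CKO. Its lowest library was again Ctrl 2, and its highest library was A5-CKO 2, with Ctrl 1 close to it, and the log2 fold change was 0.06 (SE 0.44, adjusted p = 0.972 in edgeR). Krt19, a type I keratin that is unusual in lacking a long tail domain, was at 262 and 103 CPM for the Ctrl libraries, with 148 and 295 CPM for A5-CKO. It differed more between libraries of a group than Krt8 did, 2.55-fold in Ctrl and 2.00-fold in A5-CKO, and its log2 fold change was 0.28 (SE 0.53, edgeR adjusted p = 0.870).

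Krt23, a type I keratin, had another pattern. It was at 128 and 199 CPM for the Ctrl libraries, with 133 and 66.9 CPM for A5-CKO, so its highest library was Ctrl 2 and its lowest A5-CKO 2. Of 18 other genes that mark the transitional state, 17 were instead lowest in Ctrl 2 and 12 highest in A5-CKO 2. The log2 fold change of Krt23 was -0.71 (SE 0.42, 95% interval -1.72 to 0.29, edgeR adjusted p = 0.578), the largest in size of the 9. In the same libraries the ratio of Krt19 to Krt23 counts went from 0.516 in Ctrl 2 to 4.41 in A5-CKO 2, with 2.04 in Ctrl 1 and 1.11 in A5-CKO 1. The Krt23 estimate stayed below 0 in every alternative run, and without A5-CKO 1 it was -1.30 with an unadjusted edgeR p under 0.05 and an adjusted p of 0.878. That fit holds 1 A5-CKO library, which is assumed to vary as the Ctrl libraries do.

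**Figure D2:**
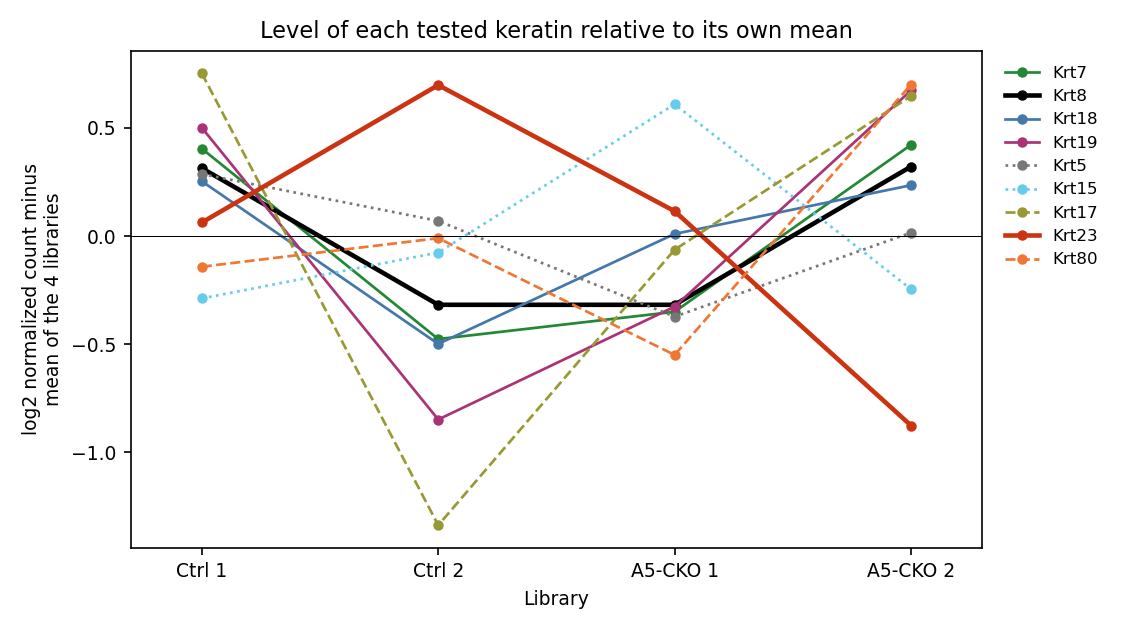
Log2 level of each tested keratin in each library, centred on its mean over the 4 libraries, with a line joining the values of a gene. Krt7, Krt8, Krt18 and Krt19 are above 0 in Ctrl 1 and A5-CKO 2 and below 0 in Ctrl 2 and, but for Krt18, in A5-CKO 1, while Krt23 is highest in Ctrl 2, lowest in A5-CKO 2 and near 0 in Ctrl 1 and A5-CKO 1.

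Krt80, a type II keratin of late epithelial differentiation, was at 51.9 and 56.9 CPM for the Ctrl libraries, with 39.1 and 93.1 CPM for A5-CKO. The A5-CKO values lay on either side of those of Ctrl, the 2 A5-CKO libraries differing 2.38-fold from each other where the Ctrl libraries differed 1.10-fold. The log2 fold change was 0.28 (SE 0.43, edgeR adjusted p = 0.836).

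The basal keratins were close to the limit of detection, since 3 counts in a library correspond to 0.128 to 0.177 CPM. Krt5 had 30 and 26 counts in Ctrl, next to 24 and 34 in A5-CKO. On the scaled level these are 1.77 and 1.51 CPM against 1.09 and 1.45 CPM, so the separation by group was seen after scaling but not in the raw counts, where A5-CKO 2 was the highest. The log2 fold change of Krt5 was -0.37 (SE 0.65, edgeR adjusted p = 0.862). Krt14, its partner, had 6 and 4 counts in Ctrl, next to 4 and 6 in A5-CKO, which is too few for a test.

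Krt15, a type I keratin of basal cells, had 21 and 25 counts in Ctrl, next to 53 and 30 in A5-CKO, with a log2 fold change of 0.45 (SE 0.68, edgeR adjusted p = 0.834). Krt17, a type I keratin that is switched on in stressed and basal epithelium, had 39 and 8 counts in Ctrl, next to 28 and 50 in A5-CKO, the largest fold between 2 libraries of 1 group, 4.95 in Ctrl. Its log2 fold change was 0.30 (SE 0.88, edgeR adjusted p = 0.919), and its lowest library was Ctrl 2. Defining markers of basal cells were near the same limit: Trp63, the transcription factor of basal cells, was at 0.473 to 1.45 CPM and Ngfr at 0.116 to 0.513 CPM.

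Counted together, the 10 keratins gave 2362 CPM (Ctrl 1), 1517 (Ctrl 2), 1649 (A5-CKO 1) and 2378 (A5-CKO 2), which was 0.220%, 0.130%, 0.182% and 0.267% of the counts of each library. Krt8 alone made up 35.2%, 35.4%, 32.6% and 35.2% of them.

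**Figure D3:**
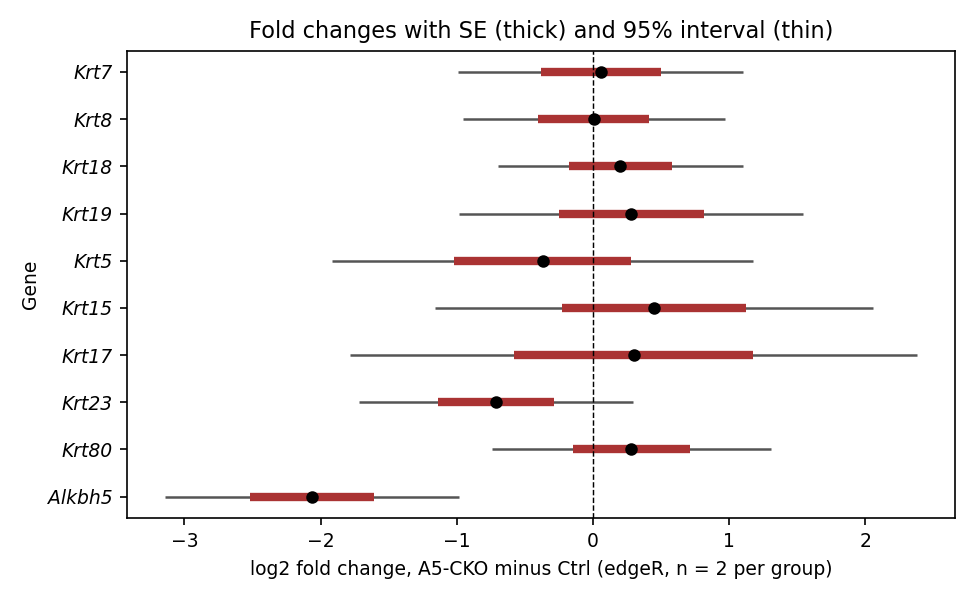
Log2 fold change of A5-CKO against Ctrl for the 9 tested keratins and Alkbh5, with the SE as a thick bar, the 95% interval as a thin line (edgeR, n = 2 per group) and a dashed line at 0. The intervals of all 9 keratins span 0, with estimates from -0.71 for Krt23 to 0.45 for Krt15, and that of Alkbh5 lies below 0.

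Between genes, levels were compared per kilobase of annotated exon, where the CPM of a gene is divided by the length of its exon union in kilobases. Krt8 and Krt18 led in every library, at 425, 274, 274 and 427 for Krt8 and 402, 239, 340 and 397 for Krt18 over Ctrl 1, Ctrl 2, A5-CKO 1, then A5-CKO 2. Krt8 stood above Krt18 in 3 libraries and Krt18 above Krt8 in A5-CKO 1, so the pair could not be ordered on these lengths. Of the 50-base stretches, 26.9% of Krt8 and 0.72% of Krt18 also occur in transcripts of other genes. The lengths were not corrected for this. Below them Krt19 stood at 141, 55.4, 79.5 and 159 and Krt23 at 81.9, 127, 84.9 and 42.7, the order of the 2 turning between libraries, with Krt7 at 71.6, 38.9, 42.5 and 72.5. The exon union of Krt7 is longer than the transcript RefSeq pairs with it, and over that transcript Krt7 came to 123, 67.0, 73.1 and 125 per kilobase. Krt80 followed at 6.12 to 14.6, or at 12.8 to 30.4 over its RefSeq transcript, and each of the other 4, Krt5, Krt14, Krt15 and Krt17, was below 2 in every library.

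The type II keratins summed to 506, 323, 323 and 515 CPM per kilobase and the type I keratins to 627, 423, 506 and 601, in the same order of libraries. The ratio of type II to type I was 0.806, 0.764, 0.639 and 0.857, so on these lengths type I was the higher in every library. The ratio was 0.868, 0.834, 0.693 and 0.927 with the transcript lengths that RefSeq gives. Reads of the 26.9% of 50-base stretches that Krt8 shares with its pseudogene may be uncounted, since the Methods keep only uniquely mapped reads. Neither set of lengths was corrected for this, so the order of the types is not settled.

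**Figure D4:**
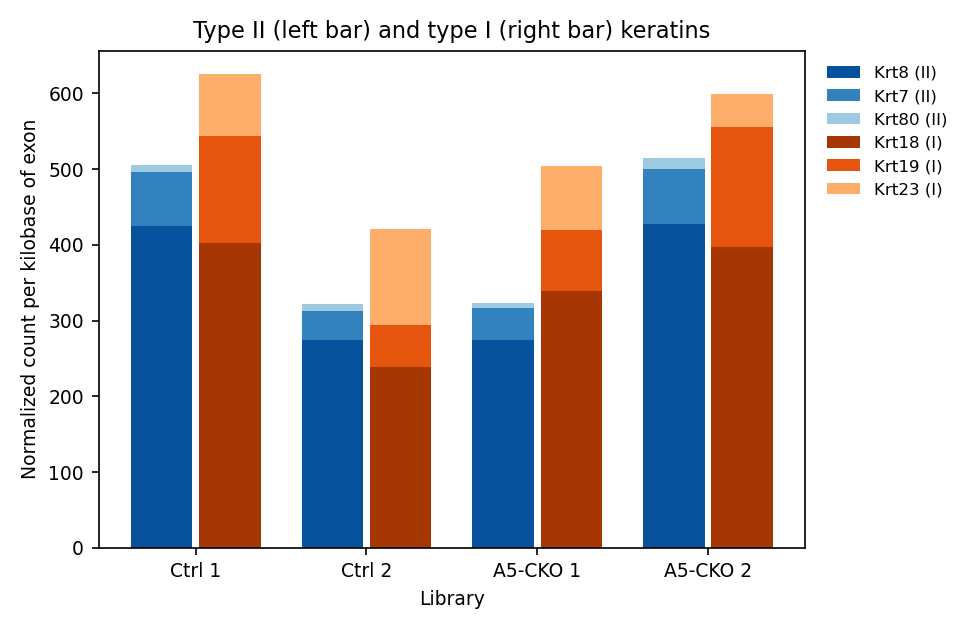
Stacked bars of CPM per kilobase of exon in each library, with the type II keratins Krt8, Krt7 and Krt80 on the left and the type I keratins Krt18, Krt19 and Krt23 on the right. The type I bar is the taller in every library, and the Krt23 segment is the largest in Ctrl 2 and the smallest in A5-CKO 2. Lengths are not corrected for stretches that Krt8 shares with its pseudogene.

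The genes with the levels most like those of Krt8 over the 4 libraries, by the root mean square difference of centred log2 levels, were Ggact, an enzyme of glutamine-related amine metabolism, at 0.0339, Mex3a, an RNA-binding protein, at 0.0366, and Mad2l1, a protein of the mitotic checkpoint, at 0.0403. Among the 16660 other tested genes the keratin nearest to Krt8 was Krt7, at rank 73, followed by Krt18 at rank 463, Krt5 at 1014, Krt19 at 2513 and Krt80 at 3046. Krt17, Krt15 and Krt23 stood at ranks 9748, 10673 and 13606. These are descriptions over 4 libraries, and the measure depends on the size of the spread as well as on its shape.

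Of 18 other genes that mark the transitional state, 17 were lowest in Ctrl 2, or 94.4% where 25.9% of all genes were, and 12 were highest in A5-CKO 2, or 66.7% against 20.2%. Their summed level was 5940 CPM (Ctrl 1), 2040 (Ctrl 2), 3840 (A5-CKO 1) and 5886 (A5-CKO 2), with Ctrl 1 and A5-CKO 2 high and Ctrl 2 low as for the keratins. Of the 18, 15 were higher and 3 lower on average in A5-CKO, with a median log2 fold change of 0.77, and 6 had A5-CKO values that both exceeded the Ctrl ones, against 20.3% of all genes. None passed an adjusted p of 0.05 in edgeR, and 2 of the 18 had an unadjusted p under 0.05, where 9.18% of all genes did. These were Areg and Hbegf, which are ligands of the epidermal growth factor receptor. Areg was at 39.5 and 23.7 CPM for the Ctrl libraries, with 69.0 and 69.5 CPM for A5-CKO (log2 fold change 1.13, SE 0.35, edgeR adjusted p = 0.528).

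Hbegf was at 53.6 and 32.2 CPM for the Ctrl libraries, with 122 and 85.7 CPM for A5-CKO (log2 fold change 1.27, SE 0.37, edgeR adjusted p = 0.528). Clu and Anxa1, among the most abundant genes of the list, had their lowest level in Ctrl 2. Clu, a secreted chaperone, stood at 1840 CPM (Ctrl 1), 903 (Ctrl 2), 1184 (A5-CKO 1) and 1486 (A5-CKO 2). Anxa1, an annexin, stood at 558, 125, 620 and 808 CPM in these libraries. Cldn4, a tight-junction gene named after its values were seen, went from 20.3 CPM in Ctrl 2 to 471 CPM in A5-CKO 2, with 297 in Ctrl 1 and 141 in A5-CKO 1. Without Ctrl 1, 12 of the 18 had an unadjusted edgeR p under 0.05, where 9.25% of all genes did, and the count was 2 without Ctrl 2 (7.77% of all genes), 1 without A5-CKO 1 (4.3%) and 1 without A5-CKO 2 (6.85%). Each of these fits assumes that the lone library of a group varies as the other group does.

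**Figure D5:**
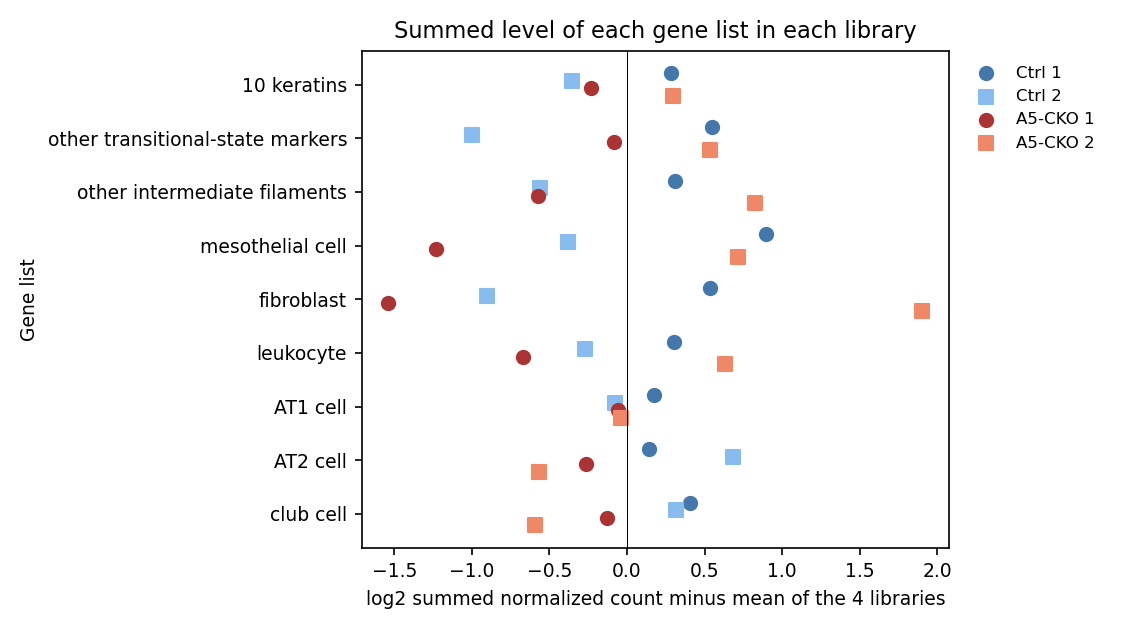
Log2 of the summed CPM of each gene list in each of the 4 libraries, minus its mean over the libraries, with a point for each library. Ctrl 1 and A5-CKO 2 lie to the right of Ctrl 2 and A5-CKO 1 for the 10 keratins and for the other transitional-state, intermediate filament, mesothelial, fibroblast, leukocyte and, by a small margin, AT1 lists, but not for the AT2 and club cell lists.

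Keratin filaments are anchored at desmosomes and hemidesmosomes, and 12 of the 17 genes of these junctions were tested. Of these, 10 were higher and 2 lower on average, with a median log2 fold change of 0.32 and no adjusted p under 0.05 in edgeR. The A5-CKO values both exceeded the Ctrl values for 6 of the 12 and both lay under them for 1, against 20.3% and 23.5% of all genes. Itga6, a laminin receptor of hemidesmosomes, was at 82.0 and 47.0 CPM for the Ctrl libraries, with 101 and 138 CPM for A5-CKO (log2 fold change 0.89, SE 0.37, edgeR adjusted p = 0.528). It was the 1 junction gene of the 12 with an unadjusted edgeR p under 0.05, where 9.18% of all genes had one. No junction gene had one without A5-CKO 1 or without A5-CKO 2.

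Jup, the plakoglobin of desmosomes, had 359 and 389 CPM in Ctrl against 259 and 294 in A5-CKO (log2 fold change -0.44, edgeR adjusted p = 0.635). Plec, which ties keratin filaments to other structures, was at 177 and 220 CPM for the Ctrl libraries, with 202 and 246 CPM for A5-CKO, and Ppl, a plakin, was at 75.0 and 151 CPM for the Ctrl libraries, with 131 and 121 CPM for A5-CKO, both groups overlapping in each. Of 8 other intermediate filament genes tested, 6 were higher and 2 lower. In edgeR 0 had an adjusted p under 0.05, and 0 an unadjusted p under 0.05, where 9.18% of all genes had one. Vim, the vimentin gene, was at 327 and 134 CPM for the Ctrl libraries, with 104 and 537 CPM for A5-CKO, and Lmna, a lamin gene, was at 281 and 165 CPM for the Ctrl libraries, with 187 and 301 CPM for A5-CKO.

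Summed markers of fibroblasts, mesothelial cells and leukocytes were high in the same libraries as the summed keratins. Those of club, ciliated and endothelial cells were not. The 5 fibroblast markers summed to 392, 145, 93.1 and 1011 CPM over Ctrl 1, Ctrl 2, A5-CKO 1, then A5-CKO 2, with Col1a1, the collagen I gene, at 147, 32.5, 21.3 and 386, all 5 highest in A5-CKO 2. The 5 mesothelial markers summed to 131, 54.0, 29.9 and 115 CPM. Msln was the largest part, at 113, 25.1, 24.3 and 89.2, and made up most of the sum except in Ctrl 2. The other 4 mesothelial markers were each higher in Ctrl 2 than in Ctrl 1, as Upk3b shows at 8.93, 18.6, 1.36 and 12.0 CPM. The 7 leukocyte markers summed to 424, 286, 217 and 534 CPM, with Ptprc, the pan-leukocyte antigen, at 50.9, 22.5, 84.3 and 82.8 and thus not in the order of the sum. Ctrl 1 and A5-CKO 2 were thus the higher libraries in each of these 3 sums, as they were for the summed keratins, though not for each marker. Mesothelial cells express Krt8, Krt18, Krt19 and Krt7, and their part in the keratin levels was not tested. The part of fibroblasts and leukocytes was not tested either.

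The labelled cell type was plain in every library, as the AT2 sums show. All 8 AT2 markers were lower on average in A5-CKO, with a median log2 fold change of -0.89 and no adjusted p under 0.05 in edgeR, and 5 of the 8 had A5-CKO values that both lay under those of Ctrl, against 23.5% of all genes. The AT2 markers, whose sum is mostly Sftpa1, Sftpc and Slc34a2, came to 48296, 70198, 36391 and 29555 CPM, and Sftpc alone to 15477, 16371, 10268 and 7856 CPM. Slc34a2 came to 8753, 19065, 7556 and 7013 CPM, above Sftpc in Ctrl 2 only. Ctrl 2 and A5-CKO 2, the libraries with the highest and lowest summed AT2 level, were the ones with the highest and lowest Krt23. Sftpb and Napsa, a surfactant protein gene and a protease that processes it, had log2 fold changes of -1.12 and -1.13 and an unadjusted edgeR p under 0.05. They were 2 of the 8, where 9.18% of all genes had such a p.

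Markers of AT1 cells, which transitional cells can become, summed to 1507, 1263, 1281 and 1298 CPM. Aqp5 was the largest part in each library, at 981, 951, 479 and 636 CPM, and most of the sum in the Ctrl libraries only. Of the 7 tested, 5 were higher and 2 lower on average in A5-CKO, with a median log2 fold change of 0.63 and no adjusted p under 0.05 in edgeR, and 5 of the 7 were lowest in Ctrl 2 (71.4%, where 25.9% of all genes were). For 4 of the 7, Hopx, Cav1, Akap5 and Clic5, the A5-CKO values both exceeded those of Ctrl, against 20.3% of all genes, and for Aqp5 they both lay under them. Ager, the defining AT1 marker, was at 0.0905 to 0.349 CPM and Pdpn at 0 to 0.770 CPM while Hopx was at 124, 63.3, 146 and 143 CPM, so the counts of Ager and Pdpn may not show the level of these genes.

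Airway markers went in both directions. The club cell list summed to 2963, 2791, 2049 and 1487 CPM with Scgb1a1, a secretoglobin, at 2262, 1936, 1518 and 1012, while Muc5b, a mucin of the same list, was at 10.5, 13.8, 27.0 and 26.3 CPM (log2 fold change 1.13, edgeR adjusted p = 0.528). Cyp2f2 had a log2 fold change of -1.15. It and Muc5b were the 2 of 6 club markers with an unadjusted edgeR p under 0.05, where 9.18% of all genes had one. Ciliated markers came to 140, 132, 150 and 55.7 CPM, with Foxj1 at 21.6, 17.9, 4.80 and 9.02 (log2 fold change -1.51, edgeR adjusted p = 0.528) and Ccdc39 at 5.91, 3.14, 23.6 and 7.78 (log2 fold change 1.79, edgeR adjusted p = 0.528). Endothelial markers came to 64.5, 129, 75.3 and 114 CPM with Pecam1 at 31.3, 48.1, 29.7 and 50.2, and Cldn5 was listed at 0 in all 4 libraries. The basal cell list summed to 1754, 1730, 1051 and 1008 CPM, nearly all of it Bcam, which is not particular to basal cells.

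Other keratins were mostly at or near 0, and 6 of the 44 had enough counts to be tested. Of the 6, 3 (Krt79, Krt78 and Krt88) had an unadjusted edgeR p under 0.05, where 9.18% of all genes did. None had an adjusted p under 0.05. Krt79, a type II keratin of hair follicle openings, had 108 and 95 counts in Ctrl, next to 12 and 32 in A5-CKO, the 1 gene of the list that was lower at an unadjusted p under 0.05 (log2 fold change -2.63, SE 0.69, edgeR adjusted p = 0.528). Krt78 had 7 and 5 counts in Ctrl, next to 45 and 26 in A5-CKO (log2 fold change 2.14, SE 0.79, edgeR adjusted p = 0.528), and Krt87 had 41 and 26 against 138 and 100 (log2 fold change 1.42). Krt88 had 0 and 0 counts in Ctrl, next to 16 and 14 in A5-CKO, and Krt12 0 and 0 against 22 and 6. Krt10, a suprabasal keratin, had 102 and 63 counts in Ctrl against 141 and 69 in A5-CKO, Krt6a 36 and 2 against 2 and 82, and Krt20 4 and 4 against 9 and 11. Krt6a was thus again highest in Ctrl 1 and A5-CKO 2.

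The Methods, under m6A sequencing, state that only uniquely mapped reads were kept for counting. Reads of stretches shared with near copies could thus be missing from these counts. Of the 50-base stretches of Krt8 transcripts, 26.9% also occur in transcripts of other genes, here the pseudogene Krt8-ps. The share was 14.4% for Krt14, 8.52% for Krt5 and 3.99% for Krt17. Krt14 shares stretches with Krt16 and Krt17, and Krt5 with Krt6a, Krt6b, Gm5478 and Gm5414. Krt17 shares them with Krt14, Krt15, Krt16 and Krt42. Exons of Krt7, Krt8, Krt5 and Krt80 overlap in part with genes on the opposite strand in GENCODE M21, and whether reads were counted by strand is not given in the sources used here. With 2 libraries a group, an exact permutation test of a single gene cannot give a p under 0.333, so the p-values above rest on the spread shared over all genes and measure the spread between these libraries alone.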

How the data were processed

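RNA of GFP+ AT2-lineage cells sorted from bleomycin-treated mice was sequenced in bulk in 4 libraries (2 Ctrl, 2 A5-CKO, by whether the sample title names A5-CKO). The full genotypes are those that the Methods of the paper give. The deposited values are raw counts per gene: per the submitters' processing notes the authors, who removed ribosomal reads and duplicates, used Trim Galore 0.6.10, HISAT2 2.2.1 and featureCounts 2.0.3 on mm10. The Methods describe the counting under m6A sequencing, and its strand setting is not given in the sources used here. Of counts from 1 to 10, 75.6% were even, against 51.0% of counts above 100 and up to 200, so low counts may hold fewer independent fragments than reads.

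Counts were filtered with filterByExpr, scaled by TMM and tested by edgeR 4.0.16 quasi-likelihood fits over all 16661 genes (R 4.3.3), with Benjamini-Hochberg adjustment. DESeq2 1.42.0 and limma 3.58.1 were alternatives, as were other scalings, filters, a GC and length correction, a replicate block and leaving out each library. The script was tested on simulated data. A count of 3 was taken as the floor (0.128 to 0.177 CPM), and it and the intervals cover counting error or the spread of the fit only.

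The members and lists were chosen with earlier results of these data known. Named genes were the 10 members, Alkbh5, other keratins with at least 10 counts in a library (up to 8), list genes with an unadjusted p under 0.05 and separated groups, the 3 most abundant of each list, the first marker of each cell type and the 3 genes most like Krt8. A gene that the rule names is not reported here. The m6A and single-cell data are not analysed here.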

Additional observations from a re-analysis of the deposited data

How the results depend on the processing

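Depth was ample for Krt7, Krt8, Krt18, Krt19, Krt23 and Krt80, and limiting for Krt5, Krt14, Krt15 and Krt17. The spread between libraries of a group was wide (biological coefficient of variation 41.6%). No keratin had an adjusted p under 0.05 in any alternative (0.527 to 0.999). Krt5 and Krt23 kept their sign throughout. Leaving out 1 library, with the lone library of that group assumed to vary like the other group, turned the sign of the others, the log2 fold change running from -0.41 to 0.63 for Krt7, -0.38 to 0.42 for Krt8, -0.17 to 0.69 for Krt18, -0.34 to 1.18 for Krt19, -0.083 to 0.80 for Krt15, -0.47 to 1.92 for Krt17, and -0.51 to 0.76 for Krt80, against -0.63 to -0.19 for Krt5 and -1.30 to -0.33 for Krt23. The members' median ran from -0.34 (without A5-CKO 2) to 0.42 (without Ctrl 1), and was -0.31 without Ctrl 2. Without a filter Krt8 was at -0.022. With total counts only, the median of all genes moved from -0.02 to 0.30 and that of the members from 0.20 to 0.50. Alkbh5 passed an adjusted p of 0.05 in DESeq2, at -2.01 on the same genes (adjusted p = 0.0248) and -2.02 with default filtering, and ran from -2.63 to -1.58 with a library left out. DESeq2 called 55 genes on the same genes and 59 by default, where edgeR called 0. The count of all genes with an unadjusted p under 0.05 ran from 746 (without A5-CKO 1) to 1668 (without Ctrl 1). Nothing in the labels or the Methods says that a replicate number pairs the libraries. Deviations of same-numbered libraries correlated at r = -0.348 over 16661 genes. That value cannot decide whether they are paired, since each group gives only 1 difference per gene. The replicate block gave 754 genes with an unadjusted edgeR p under 0.05 and a members' median of 0.15, with no member called. Markers of the transitional state with an unadjusted p under 0.05 numbered 2 in edgeR, 4 in DESeq2, and 5 with total counts only or the GC and length correction. Their number varied with the library left out. Junction genes with such a p numbered 1 in edgeR (Itga6), 3 with total counts only, 0 without a filter, with the replicate block or with the GC and length correction, and 0 to 2 with a library left out (0 without A5-CKO 1 or A5-CKO 2). The RefSeq-matched transcript lengths were an alternative chosen after seeing the data.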
